A study of Danio rerio with 6 samples.

Results

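The eye of the zebrafish embryo at 75 hours post fertilization (hpf), exposed to the vehicle DMSO and to no added retinoic acid (RA), was described through the 300 genes with the brightest signal on 3 arrays, out of 8793 genes measured, or 3.41%. Genes were ranked by the mean log2 signal over the 3 DMSO arrays, each gene by the brightest of its probe sets (a probe set is the group of short probes that reads 1 transcript), and probe sets with no or several gene symbols were left out. The genes were thus chosen by their DMSO signals, so their levels are a description and carry no test. The study set eyes of embryos exposed to 0.3 µM all-trans RA, dissolved in DMSO, from 48 to 75 hpf against eyes of clutch mates kept over the same period in DMSO alone, present at 0.1% in both treatments according to the methods. The embryos were wild type, of an outbred line named SciH. According to the methods, embryos of 3 clutches were divided over both treatments. The sample titles number the pools 1, 3 and 4 in each treatment without naming clutches. These numbers are read here as the clutches. Each of the 6 pools held 64 eyes dissected from embryos frozen and kept in cold methanol. All 6 pools were measured on Affymetrix Zebrafish Genome Arrays after amplification of the RNA. The DMSO eyes are vehicle controls, and eyes without vehicle were not among the samples analysed here.

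The vertebrate eye brings together tissues of different origin. The lens comes from the surface ectoderm and fills its fiber cells with crystallins, the neural retina comes from the neural tube and holds photoreceptors, interneurons, ganglion cells and Müller glia, and the retinal pigmented epithelium (RPE) lies behind the photoreceptors, makes melanin and returns visual pigment to its light-sensitive form. In photoreceptors an opsin activates the G protein transducin, transducin activates a phosphodiesterase (PDE6), and the fall of cyclic GMP closes ion channels. Cones and rods use separate genes for most of these steps. Around the retina lie the cornea with its epithelium, the sclera with its cartilage, eye muscles, vessels and blood, and proliferating cells at the retinal margin.

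Signals are on the linear scale of the deposited values, in arbitrary units, and means are given ± SD over 3 pools, while ranks follow the mean of the log2 signals. The signal of a probe set depends on its probes as well as on its transcript, so the order of the genes is an order of array signal and not of transcript number. In pooled whole eyes, fewer cells of a type and less RNA per cell cannot be told apart. The 6 arrays were alike in scale, with a 2% trimmed mean of 125 on each, and 67.1% to 69.8% of their probe sets lay above 13.2, the highest signal of 87 control probe sets that have no target. By this bound 6474 genes were above background in all 3 DMSO pools. The brightest genes lay far above it, with no signal under 796 in any DMSO pool. Their median was 1571, against 66.8 for all genes, and they made up 28.5% to 32.8% of the summed gene signal of a DMSO pool. Among the DMSO arrays, that of the pool of clutch 1 stood apart in the bright genes. Among the RA arrays, that of clutch 4 did so to a smaller degree. The values of both are set beside the spread of the pools.

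The brightest signals of the DMSO eye came from ribosomes, mitochondria, lens and cones. Lists of genes made for this description cover 18 tissues or cell types and 12 kinds of cellular machinery. Of the 300 genes, 57 were on a tissue list, 187 on a machinery list, 7 of them on both, and 63 on none. The brightest gene was COX1, the subunit of cytochrome c oxidase that is encoded in the mitochondrial genome, with signals of 5324, 3601 and 3544 for DMSO clutches 1, 3 and 4, the order kept for all values of single pools. Next came crybb1, a beta-crystallin of the lens, with 4350.3, 3224 and 3575, and rack1, a scaffold protein on the small ribosomal subunit, with 4498, 3016 and 3145. The fourth was si:ch211-255g12.6, annotated in RefSeq as a long non-coding RNA, with a mean of 3487 ± 841. The fifth was gngt2b, a transducin gamma subunit of cones, and the sixth zgc:171772, a gene with a provisional name, at 3369 ± 790.2. The ribosomal protein genes rpl35, rpl19 and rps25 and the elongation factor gene eef1a1l1 completed the 10 brightest, with means of 3308, 3263, 3227 and 3216. In all 10 the DMSO pool of clutch 1 was the highest of the 3.

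**Figure D1:**
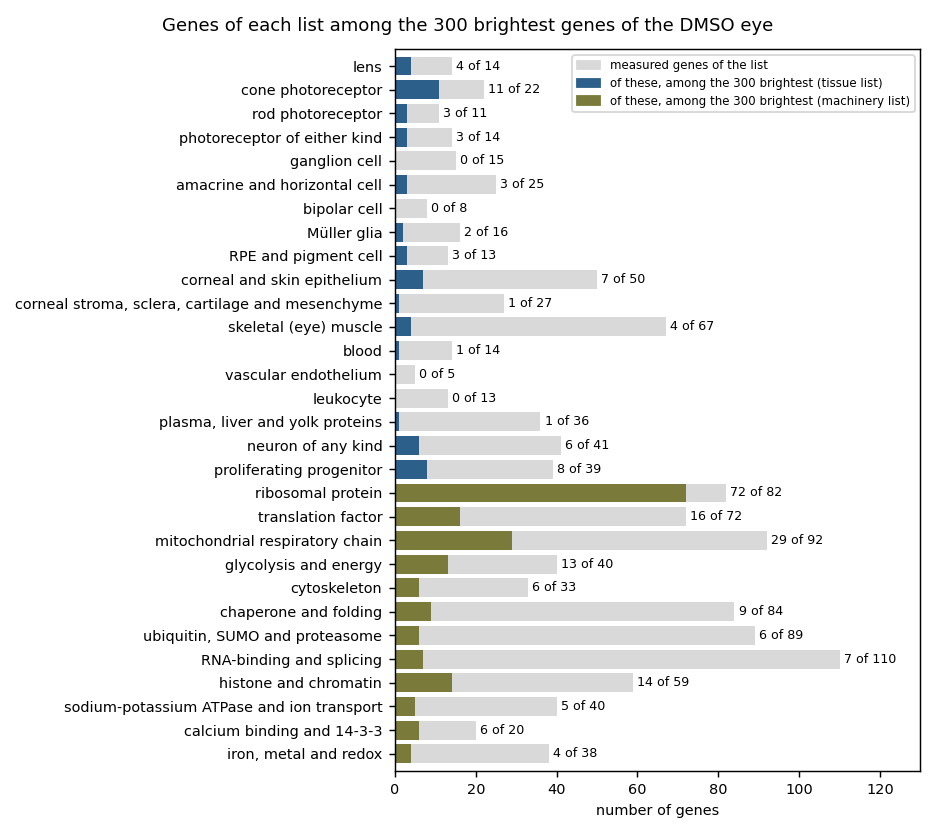
Horizontal bars give, for each of the 18 tissue lists and 12 machinery lists, the number of measured genes (grey) and how many of them were among the 300 brightest genes of the DMSO eye (coloured). The longest coloured bar is that of ribosomal proteins, with 72 of 82, and among tissue lists that of cones, with 11 of 22. A gene can stand on more than 1 list.

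Lens genes divided between a few very bright ones and several at background. Of 14 lens genes measured, 4 were among the brightest, 8 were above background in all DMSO pools, and the list's median was 33.0, against 66.8 over all genes. Besides crybb1 they were cryba4, another beta-crystallin, with 3776, 2687 and 2804, crygmxl2, a gamma-crystallin, with 2683, 1801 and 1722, and bfsp2, which encodes a beaded filament protein of lens fiber cells, with 1296, 1077 and 864. In these 4 genes the pool of clutch 1 was again the highest. The brightest lens genes below rank 300 were cryaa, an alpha-crystallin chaperone at rank 1640, with 296, 264 and 356, crygm2c with 165 ± 42.2 and crygs1 with 67.4 ± 44.6. The other alpha-crystallin gene measured, cryaba, and the lens connexin gene gja8b were below background in every DMSO pool, with 0.615, 2.52 and 3.58 and 4.89, 1.98 and 5.94. Most gamma-M crystallin genes share a probe set and fall outside the ranking by gene.

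Of the 18 tissue lists, that of cones had the largest share of its genes among the brightest. Of 22 cone genes measured, 11 were among the brightest (50%, where 3.41% of all genes were), and the list's median was 995. The brightest of them was the cone transducin gene gngt2b, and 3 visual pigment genes were among the 11. The blue opsin gene opn1sw2 had 3501, 2825 and 3061. The ultraviolet opsin gene opn1sw1 had 2611, 2270.3 and 2555, and the green opsin gene opn1mw1 had 2385, 2184 and 2169. The pools were close for opn1sw1 and opn1mw1, and the pool of clutch 1 was the highest for each of the 3 opsins. A second green opsin gene, opn1mw2, lay at rank 455 with 826 ± 165. The red opsin gene opn1lw1 was at 42.2 ± 17.1 and the green opsin gene opn1mw4 at 3.07 ± 0.799, below background. The other red opsin gene, opn1lw2, was not among the 6 cone opsin genes measured. According to the paper, in situ hybridization found opn1lw2 widely expressed in control embryos and did not detect opn1lw1 in them. The level of red opsin as a whole can therefore not be read from these values.

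The steps after the opsin were bright as well. Cone transducin was represented by its alpha subunit gnat2, its beta subunit gnb3b, and both gamma subunits, gngt2b with 4189, 3062 and 2981 and gngt2a with 1759, 1468 and 1355. The beta subunit gene had 1959.8, 1912 and 2314. For gnat2 the order of the pools was turned round, with 1229, 1836 and 2037, the pool of clutch 1 being the lowest. Cone PDE6 appeared with its catalytic subunit pde6c at 1523 ± 356 and its inhibitory gamma subunits pde6hb and pde6ha at 2083 ± 249 and 2064 ± 155. The calcium sensor gene rcvrn2, a recoverin, had 1221 ± 121, and its other probe set had a mean signal of 61.9. The next cone genes were rcvrn3 at rank 610 with 675 ± 63.2 and guca1c, an activator of guanylate cyclase, with 245 ± 31.3. The guanylate cyclase genes themselves, gucy2f and gucy2d, had 241 ± 56.7 and 63.0 ± 37.0.

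Rod genes were above background but fewer were among the brightest, 3 of 11, with a list median of 252. All 11 were above background in the 3 DMSO pools. The 3 were the rod transducin subunits: gngt1, the gamma subunit, with 2643, 1882 and 1986, gnb1b, a beta subunit, with 942, 1014 and 1514, and gnat1, the alpha subunit, with 1306, 997 and 1036. The beta subunit is also used outside photoreceptors. Below rank 300, gnb1a had 841 ± 42.3, rom1b, an outer segment disc protein, 557 ± 54.3, and nr2e3, a nuclear receptor of the rod fate, 253 ± 23.5. Of 14 genes that rods and cones share, 3 were among the brightest, namely rbp4l, a gene named for its likeness to retinol-binding protein 4, with 2571, 2079 and 2014, rbp3, the retinoid carrier of the interphotoreceptor matrix, with 1365, 1298 and 1295, and pdcb, a phosducin that binds transducin beta and gamma, at rank 300. The photoreceptor transcription factor gene crx had 762 ± 122, prom1b, a membrane protein of the outer segment, 936 ± 6.80, and elovl4b, a fatty acid elongase, 807 ± 180.4.

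Inner retinal neurons contributed few of the brightest genes, though the 12% of the amacrine and horizontal cell list exceeded the 3.41% of all genes. The amacrine and horizontal cell list had 3 of 25: calb2b, a calretinin, with 1367, 1261 and 1266, tfap2a, a transcription factor of amacrine and horizontal cells that skin also uses, with 1259, 1092 and 1093, and slc32a1, the transporter that loads GABA and glycine into synaptic vesicles, with 1264, 1105 and 1014. The eye field gene pax6a followed at rank 309 with 1039 ± 50.9, calb2a at 777 ± 60.8 and gad1b, an enzyme of GABA synthesis, at 543 ± 90.9. No bipolar cell gene of 8 and no ganglion cell gene of 15 was among the brightest. At the 3.41% of all genes, lists this short can hold none, so nothing is read from these counts. The bipolar genes vsx1, otx2b and pcp4a nevertheless had 829 ± 83.6, 516 ± 56.9 and 449 ± 23.6, and the ganglion cell list reached 895 ± 55.1 for tubb5, 613 ± 214 for sncgb and 555 ± 39.3 for inaa. The medians of the 2 lists were 284 and 147, above that of all genes. The ganglion cell transcription factor gene pou4f2 was near background, at 14.4 ± 10.1.

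Of 41 genes that neurons share, 6 were among the brightest, or 14.6%, and all 41 were above background in every DMSO pool. They were atp1b2a, a sodium pump beta subunit, with 1837 ± 281, the actin-binding proteins marcksl1b and marcksb with 1536 ± 204 and 1349 ± 61.8, the synaptic vesicle fusion genes snap25b and syt1a with 1507 ± 212 and 1253 ± 142, and the synuclein gene sncb with 1370.3 ± 207. The next were stmn1b, rtn1b and sypb, at 1016 ± 155, 1024 ± 212 and 948 ± 77.6. Müller glia gave 2 of 16 genes. The fatty acid-binding protein gene fabp7a, of radial and Müller glia, had 2769, 2199 and 2396, and the gap junction gene gja1b, connexin 43, had 1527, 1288 and 1384. Just outside lay slc1a2b, a glutamate transporter, and below it the glutamine synthetase genes glula and glulb, with 913 ± 70.4 and 699 ± 41.6. The intermediate filament gene gfap was at 28.3 ± 11.8.

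RPE and pigment cells were represented by genes of the visual cycle and of melanin synthesis, 3 of 13 genes. The retinoid isomerase gene rpe65a stood at rank 39 with 3495, 2297 and 2369, and its other probe set had a mean signal of 1827. The melanin enzyme gene dct had 2355, 1652 and 1595, and rgrb, a retinal-binding opsin of the RGR group, had 1388, 1099 and 918. In all 3 the pool of clutch 1 was the highest, by 1.51-fold over the lowest pool for rgrb. The next genes were tspan36, rlbp1a, a carrier of retinaldehyde, and pmelb, a melanosome protein, with 989.5 ± 77.5, 973 ± 59.7 and 897 ± 53.9. The first enzyme of melanin synthesis, tyr, was below background at 6.18 ± 1.19.

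Surface epithelium of the cornea and skin, which share their keratins, gave 7 of 50 genes. They were the keratin genes krt1-19e with 2765, 1898 and 1708, krt91 with 1757, 1439 and 1384, krt4 with 1317, 1282 and 1327, krt97 with 1669.5, 967 and 1115 and krt5 with 1168, 1134 and 1089, and the S100-type calcium-binding genes icn2 and icn with 1944 ± 258 and 1379.5 ± 204. The pools were nearly equal for krt4 and widely spread for krt97. The list's median was 175, and below rank 300 the annexin gene anxa1a, fxyd6l and perp had 946 ± 127, 810.2 ± 20.8 and 574 ± 108. Of 27 genes of stroma, sclera, cartilage and mesenchyme 1 was among the brightest, or 3.7%, close to the 3.41% of all genes. It was col2a1a, the type II collagen of cartilage, with 1459, 1328 and 1158. The matricellular gene postnb was the first gene outside the 300, sparc had 905 ± 89.6 and col1a1a, of type I collagen, 661 ± 96.8. The keratocan gene kera, a proteoglycan of the corneal stroma, had 66.0 ± 11.4.

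Muscle, blood, vessels and plasma contributed few of the brightest genes. The muscle list gave 4 of 67 genes, or 5.97%, where 3.41% of all genes were among the 300. Its median was 65.9, close to that of all genes. The mitochondrial creatine kinase gene ckmt2a had 2077, 1694 and 1875, the actin gene actc1b had 2324, 1547 and 1652, and the myoglobin gene mb had 1554, 1099 and 1402. The fourth, myl12.1, with 1116 ± 32.6, encodes a myosin light chain of the kind found outside muscle, and it is also on the cytoskeleton list. The fast muscle genes mylpfa, tnnt3b and ckma were much dimmer, at 457 ± 77.0, 383 ± 8.53 and 130.4 ± 7.77, and the list's brightest genes outside the 300 were pvalb6, aldoaa and tpm3, with 887 ± 50.3, 882 ± 70.3 and 880.2 ± 38.8. Among 14 blood genes hbae3, an embryonic alpha globin, was one of the 300 with 2280.0, 1526 and 1575, followed by hbbe2 with 538 ± 109, nt5c2l1 with 128 ± 27.3 and blvrb with 74.0 ± 18.6. None of 5 vascular genes and none of 13 leukocyte genes was among the 300, which lists this short can show at the 3.41% of all genes. The vascular genes kdrl, plvapb and cldn5a had 42.3 ± 5.75, 26.6 ± 11.9 and 14.9 ± 7.60, and the leukocyte genes coro1a and lyz 298 ± 64.4 and 69.1 ± 35.6. The neutrophil peroxidase gene mpx differed between the DMSO pools, with 102, 946 and 106, being high in that of clutch 3 alone. Summed over the 13 leukocyte genes, the signal was 570, 1532 and 569 in DMSO and 725, 754 and 850 in RA. Genes of liver, plasma and yolk were mostly dim, with 23 of 36 at or under the background in all 3 DMSO pools. The exception among the 300 was rbp4, the retinol carrier of plasma, at rank 299, followed by rbp2a, a cellular retinol-binding protein, with 883 ± 127, apoeb with 567 ± 83.6 and apoc1 with 288 ± 18.8.

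The list for proliferating progenitors gave 8 of 39 genes, of which hmga1a, ptmab, hmgn3, hmgn6 and tuba8l4 were the brightest, with means of 2293, 2182, 1842, 1527 and 1355. Of these, hmga1a, hmgn3 and hmgn6 encode chromatin proteins and are also on the chromatin list, ptmab encodes the nuclear protein prothymosin alpha, and tuba8l4 is an alpha tubulin gene. The replication clamp gene pcna had 1836, 971 and 1381. Other genes of S phase and mitosis were dimmer, such as rrm1 with 538 ± 93.1, fen1 with 358 ± 51.4, cdk1 with 323 ± 90.3 and mki67 with 124 ± 7.44. These 4 were picked after their values were seen. Just below rank 300 were hmgb2b and hmgb2a, at 1062 ± 300.5 and 978 ± 293, both lowest in the pool of clutch 1, and ptmaa with 866 ± 81.0.

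**Figure D2:**
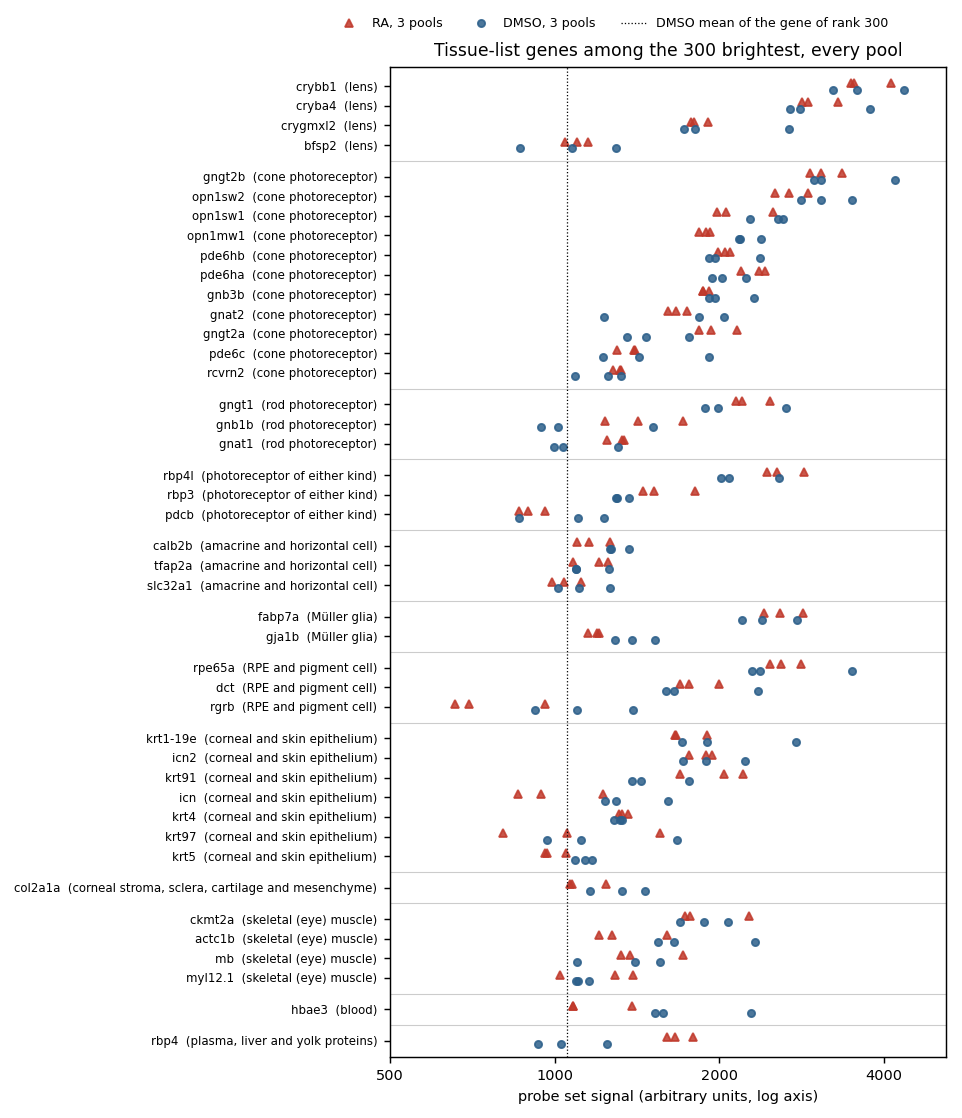
Each row is a tissue-list gene among the 300 brightest, with its signal (log axis, arbitrary units) in the 3 RA pools (red triangles) and the 3 DMSO pools (blue circles); the lists of genes shared by all neurons and of progenitors are left out. Signals overlap between the treatments in most rows, but in those of hbae3, krt5 and gja1b, among others, the RA pools lie to the left of the DMSO pools, while in those of rbp4, gngt2a and rbp3 they lie to the right.

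Cellular machinery filled most of the rest. Ribosomal subunits came first, with 44 of 45 large subunit and 27 of 30 small subunit genes measured among the 300, and 38 of the 50 brightest genes were on the ribosomal list. The median signal was 2469 for large and 2188 for small subunit genes. The exceptions were rpl7l1, rps27.2, faub and rps27l, at ranks 1730, 1567, 2845 and 3132. Each has a close relative by name among the 300, namely rpl7, rps27.1 or faua. Translation factors gave 16 of 72 genes, led after eef1a1l1 by eef2b with 2289 ± 418, naca with 2233 ± 54.6, eef1b2 with 1772 ± 187 and eef1g with 1753 ± 77.1, which act in elongation or, for naca, at the ribosome's exit.

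The respiratory chain was uneven between its complexes. Of 16 ATP synthase genes 13 were among the 300, and of complex IV, cytochrome c oxidase, 10 of 15 with COX1 counted. Complex III gave 2 of 8, complex I 4 of 33 and complex II 0 of 4. The median signals in the same order were 1473, 1286, 901, 741 and 425, and every one of these genes was above background. This division of the list was made by gene names, after its values were seen. It counts ndufa4a, one of the 300, and ndufa4b with complex I by their names only. The brightest nuclear-encoded genes were atp5f1b with 2245 ± 295, cox7b with 2201 ± 319, atp5pf with 1989 ± 250.4, cox5aa with 1811 ± 96.7 and atp5l with 1826 ± 403.

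Glycolysis and energy metabolism gave 13 of 40 genes. The brightest were the brain-type creatine kinase gene ckbb with 2589.6, 2288 and 2483, the glyceraldehyde phosphate dehydrogenase gene gapdhs with 2299, 2140.2 and 2215, enolase eno1a with 1954 ± 238, the aldolase gene aldocb with 1785 ± 97.4 and tpi1b with 1691 ± 145. The cytoskeleton list gave 6 of 33, led by tmsb4x, which binds actin monomers, with 2429.8 ± 402, then tubb2b, actb1, actb2 and pfn1. Chaperones gave 9 of 84, among them the cyclophilin genes ppib, ppiab and ppiaa, with 1905 ± 149, 1907 ± 198 and 1727 ± 102, and hsp90ab1 and hspa8 with 1875 ± 170.3 and 1583 ± 150.0. Histone and chromatin genes gave 14 of 59, 5 of them nucleosome-binding HMGN genes of 6 measured. Calcium-binding and 14-3-3 proteins gave 6 of 20, with calm3b, a calmodulin, at 1819 ± 221 and 5 genes of the 14-3-3 family, the brightest of them ywhaba at 1518 ± 280.0.

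The remaining lists had 6.36% to 12.5% of their genes among the 300. RNA-binding and splicing genes gave 7 of 110, led by cirbpb, hnrnpaba and cirbpa with 1824 ± 230.2, 1797 ± 152 and 1789 ± 242. The ubiquitin, SUMO and proteasome list gave 6 of 89, led by psmb7 with 1809 ± 149.8, and ion transport 5 of 40, where atp6v1ba, a proton pump subunit, had 1799 ± 121. Iron, metal and redox genes gave 4 of 38: fth1a and fthl27, which encode ferritins, gstp1.2, a glutathione transferase, and prdx2, a peroxiredoxin, with 1703 ± 413, 1100.0 ± 217, 1661 ± 173 and 1452 ± 127. Among the 63 genes on no list the brightest after COX1, si:ch211-255g12.6 and zgc:171772 were cldng, a claudin of tight junctions, with 3444, 2653 and 2759, and the mitochondrial dehydrogenase gene idh2 with 3118, 2218 and 2217. Provisional names were carried by 11 of the 300.

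At rank 300 the genes formed a continuum. The last genes inside were ppp6c, a phosphatase subunit, with 1064 ± 67.6, rbp4 with 1069 ± 162 and pdcb with 1065 ± 188. The first outside were postnb with 1062 ± 183, slc1a2b with 1059 ± 171 and ndufa5, of complex I, with 1061 ± 201, within the spread of those inside. Several probe sets read 59 of the 300 genes, and in 18 of these the next probe set was also above the mean of the gene of rank 300. In 7 the dimmest probe set was at or under background in all DMSO pools, as for cldng, actc1b and si:dkey-7c18.24. Over the 59 genes the brightest probe set exceeded the next by a median of 2.84-fold. For gnat1, krt1-19e and hsp90ab1 the next probe set had 554, 462 and 1.84. In the RefSeq annotation of the assembly GRCz12tu, 298 of the 300 genes were found among protein-coding genes, and 12 pairs of them were direct neighbours. These included crybb1 and cryba4, icn and icn2, hnrnpa0b and hnrnpa0l, bfsp2 and zgc:136930, and rbp4 and pde6c.

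The spread over the 3 DMSO pools was small for most genes and depended on 1 array. The median SD of log2 signal was 0.165 over the 300 genes, against 0.245 over the 6174 other genes above background and 0.153 over the next 300 genes by rank, and the highest pool exceeded the lowest by a median of 1.24-fold. Of the 300, 43 had pools within 1.1-fold of each other and 1 had pools more than 2-fold apart. The pool of clutch 1 was the highest for 236 genes, that of clutch 3 for 18 and that of clutch 4 for 46. Its log2 signal exceeded the mean of the other DMSO pools by a median of 0.24 over the 300 genes, by 0.43 over the 50 brightest, where it was the highest in all 50, and by 0.07 over the next 300 genes. Over the other genes above background the median was -0.05. Among the RA arrays, that of clutch 4 had a smaller excess over the other RA arrays. Its median log2 was 0.126 over the 300 genes and 0.161 over the 50 brightest. It was the highest RA array for 196 of the 300 and for 45 of the 50.

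Transcripts that did not come from the eyes moved with the array of the DMSO pool of clutch 1. The hybridization controls, bacterial and phage transcripts added in the laboratory, had 18 probe sets. Of these, 14 were highest on the array of the DMSO pool of clutch 1 and the rest on the RA array of clutch 4. Over all 18 the array of the DMSO pool of clutch 1 exceeded the mean of the other DMSO arrays by a median log2 of 0.46. The brightest, a probe set for cre, had 3843, 3937 and 4712 on the RA arrays of clutches 1, 3 and 4, and 5823, 3695 and 3669 on the DMSO arrays. The ratio of the 3' to the 5' probe set of the actin control, a sign of RNA quality, was 64.5 on that array and 5.30 to 20.2 on the others, and that of gapdh was also highest, at 2.58, on that array. The part of these differences in the spread of the genes was not tested. When the arrays were given the same distribution by quantile normalization, the median SD of log2 signal of the 300 genes was 0.0998, the median excess of the pool of clutch 1 was under 0.01 on the log2 scale, and that pool was the highest for 120 genes.

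**Figure D3:**
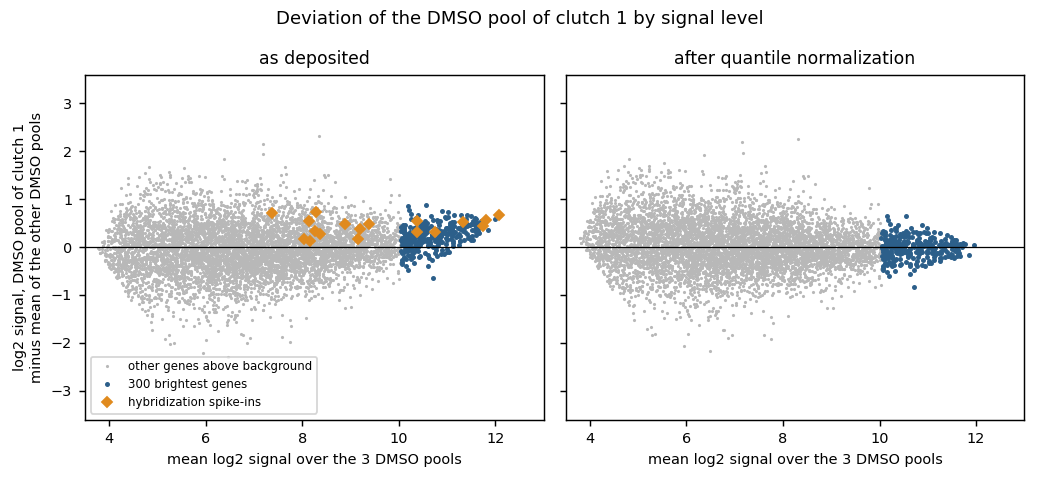
Each point is one of the 300 brightest genes (blue), another gene above background in all DMSO pools (grey) or a hybridization control (orange), with its mean log2 signal over the 3 DMSO pools and the log2 difference between the DMSO pool of clutch 1 and the mean of the other DMSO pools. In the values as deposited the blue points climb above 0 as the level rises, with a median of 0.43 over the 50 brightest, and after quantile normalization they lie around 0.

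Ranges over the DMSO pools, as the highest over the lowest signal, ran from 1.00-fold for tuba8l4 to 2.09-fold for pabpc1a. The widest were pabpc1a, a poly(A)-binding protein, with 2296, 1405 and 1098, aga, a lysosomal amidase, with 1323, 1574 and 796, pcna, lrrc20 with 1728, 929.7 and 980.3, and zgc:136930 with 2708, 1511 and 1697. In 4 of these 5 the pool of clutch 1 was the highest, while aga was highest in that of clutch 3, and its range of 1.98-fold was 2.09-fold after quantile normalization. For pabpc1a and aga the next probe set had a mean signal of 370 and 23.1, and its range is not given here. The narrowest were tuba8l4, an alpha tubulin, with 1357, 1351 and 1356, the lactate dehydrogenase gene ldhba with 1577, 1567 and 1552, rpl22 with 1794, 1768 and 1756, gng13b, a G protein gamma subunit, with 1426, 1378 and 1384, and krt4. These narrow ranges held only on the deposited scale, since after quantile normalization the first 4 ranges were 1.12, 1.19, 1.16 and 1.11-fold. By list, the median SD of log2 signal was 0.311 for the RPE genes, 0.28 for the lens genes, 0.214 for the ribosomal genes, 0.157 for the cone genes and 0.0908 for the glycolytic genes among the 300. After quantile normalization the same medians were 0.168, 0.145, 0.0742, 0.149 and 0.104. Among cones, gnat2 varied most in both scales, with a range of 1.66-fold as deposited.

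The RA arrays, which had no part in the ranking, held nearly the same brightest genes. Of the 300, 281 were also among the 300 brightest genes of the RA eyes and 296 among the 400 brightest. On single arrays 268 to 277 of them were among the 300 brightest in RA, and 273 to 287 in DMSO. The DMSO arrays had chosen the genes, so their range is not independent of that choice. The median difference between RA and DMSO was -0.02 on the log2 scale over the 300 genes and -0.02 over the other genes. Differences were within 0.5 log2 for 294 of the 300 genes. In the deposited values 119 of the 300 were higher in RA than in DMSO, and without the DMSO pool of clutch 1 219 were, so that the direction of small differences turned with that pool. With quantile normalization 138 were higher in RA.

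Tested with limma over 15555 probe sets, two-sided with Benjamini-Hochberg adjustment, 0 of the 300 genes passed 10% FDR, where 0.842% of all probe sets did. Since high signals on the same DMSO arrays chose the genes, which favours genes that are lower in RA, nothing is read from that count or from the p-values of single genes. Before adjustment, p was below 0.05 for 5 genes of the 300 (1.67%) and for 8.76% of all probe sets. With a variance that could follow the signal level (limma's trend) it was below 0.05 for 15 of the 300. The first count thus depends on the variance model, and the share of all probe sets with the trend is not given here. These p-values rest on the spread between the 3 pools of each treatment, which limma moderates by the spread of all probe sets tested. With clutch as a replicate block the number of all probe sets called was 45, against 131 without it, and no gene of the 300 was among them. The signals of RA and DMSO did not overlap for 24 of the 300 genes, 8%, and for 15.3% of all probe sets.

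The gene that differed most was zgc:136930, a neighbour of bfsp2 in the annotation, with 857, 592 and 838 in RA against 2708, 1511 and 1697 in DMSO. The RA pools lay below all DMSO pools, with a log2 difference of -1.34 ± 0.29 (SE) and an adjusted p of 0.184 by limma. The same held for si:dkey-7c18.24, with 562, 1050.3 and 745 in RA against 1871, 1476 and 1352 in DMSO, a log2 difference of -1.03 ± 0.28 and an adjusted p of 0.314 by limma. This gene has 4 probe sets, the next at 824 in DMSO, and only the brightest is given here. In the opposite direction stood rbp4, with 1661, 1787 and 1604 in RA against 1025, 1248 and 933 in DMSO, a log2 difference of 0.67 ± 0.18 and an adjusted p of 0.309 by limma. These 3 missed the threshold, and with a variance that could follow the signal level (limma's trend) their adjusted p was 0.0145, 0.0484 and 0.0378, while with clutch as a replicate block it was 0.212, 0.441 and 0.369. Over the 300 genes the median SE of the log2 difference was 0.175 without the trend and 0.123 with it.

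Other genes of the eye tissues differed by less than the test could call. These genes were picked after their values were seen. The globin gene hbae3 had 1078, 1079.7 and 1387 in RA against 2280.0, 1526 and 1575 in DMSO, with no overlap. Its next probe set had a mean signal of 935 in DMSO, and only the brightest is given here. Summed over the 14 blood genes the signal was 1786, 1829 and 2163 in RA and 3200.0, 2320.0 and 2518 in DMSO. The larger part of each sum was hbae3 itself. Over the 14 genes the median log2 difference was -0.05, and 7 of them were at background in all DMSO pools. The RPE gene rgrb had 698, 657 and 959 in RA against 1388, 1099 and 918 in DMSO, and pcna had 761, 752 and 1167 in RA against 1836, 971 and 1381 in DMSO, both with overlap. Cone genes went both ways without overlap, the green opsin gene opn1mw1 with 1893, 1834 and 1919 in RA against 2385, 2184 and 2169 in DMSO, and gngt2a with 1836, 1929 and 2152 in RA against 1759, 1468 and 1355 in DMSO. The retinoid carrier gene rbp3 had 1519, 1447 and 1807 in RA against 1365, 1298 and 1295 in DMSO, and the Müller glia gene gja1b 1205, 1194 and 1150.5 in RA against 1527, 1288 and 1384 in DMSO. The histone gene histh1l1 was brighter in every RA pool, with 1842, 1696 and 1421 in RA against 938, 1260.2 and 1346 in DMSO. Their adjusted p ranged from 0.539 to 0.78 by limma. The lens gene crybb1, in contrast, had 3478, 3523 and 4121 in RA against 4350.3, 3224 and 3575 in DMSO, and rpe65a 2597, 2472 and 2821 in RA against 3495, 2297 and 2369 in DMSO, both with overlap. Their log2 differences were 0.00 and -0.02.

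**Figure D4:**
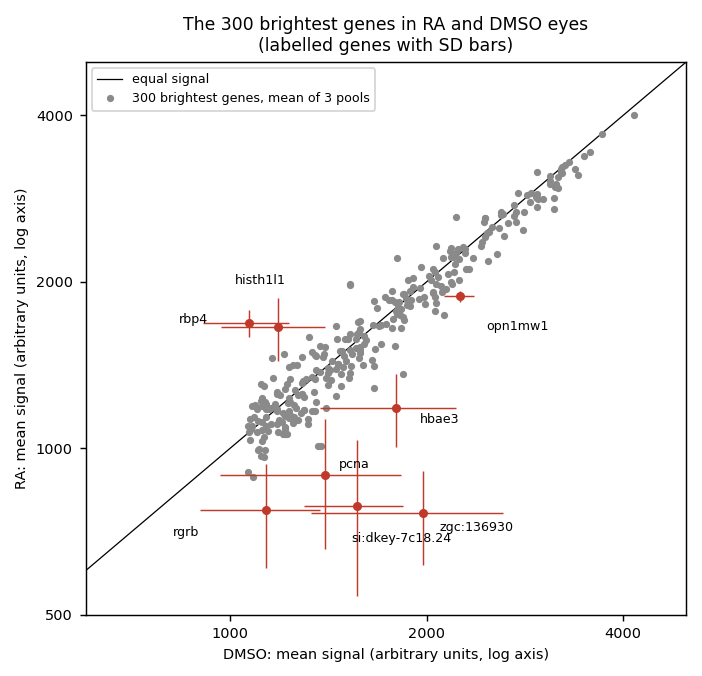
Points are the 300 genes, each with its mean signal in the RA pools on the vertical and in the DMSO pools on the horizontal axis (both log, arbitrary units); 8 labelled genes (red) carry bars of the SD over 3 pools, and the line marks equal signal. Most genes lie along the line, zgc:136930 and si:dkey-7c18.24 lie furthest below it and rbp4 furthest above.

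Replaced in the RA eyes were 19 of the 300 genes, and the 19 that took their places were mostly from ranks just below 300 in DMSO. The exceptions, named after their values were seen, were cyp26a1, an enzyme that degrades RA, with 1557, 1611 and 1652 in RA against 104, 126 and 145 in DMSO, the red opsin gene opn1lw1 with 1238, 1914 and 1745 in RA against 32.5, 32.2 and 61.9 in DMSO, and cox4i2, a subunit of complex IV, with 1263, 1081 and 1214 in RA against 563, 688 and 801 in DMSO. Their ranks in DMSO were 3231, 5286 and 606. The others all lay within rank 406 in DMSO.

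Differences between the clutches at equal treatment were also tested, since clutch did not enter the ranking. By limma's F test 0 of the 300 genes passed 10% FDR, and 0% of all probe sets did. An unadjusted p below 0.05 was found for 0 of the 300 and 1238 of 15555 probe sets, and with the variance trend for 8 of the 300. With 2 residual degrees of freedom a miss of the threshold does not show that the clutches were alike. Over the 300 genes the deviations of the RA and the DMSO pool of the same clutch from their group means correlated with r = -0.0869, 0.525 and 0.113 for clutches 1, 3 and 4, as a description across genes that share their arrays.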

How the data were processed

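RNA from 6 pools of 64 eyes, 3 RA and 3 DMSO, was measured on 1 array each. The deposited table holds 1 intensity for each probe set and array on a linear scale, which the authors had scaled so that every array has the same 2% trimmed mean. The methods describe RMA on the log2 scale, which these values are not, and the program that made them is not given in the sources used here. The plan had assumed RMA values, and log2 intensities were tested instead, with nothing added. Gene names came from the platform annotation: of 15617 probe sets, 10795 outside the controls have 1 symbol (8793 genes), 135 several and 4572 none. Each gene was represented by its probe set with the highest mean log2 signal over the 3 DMSO arrays.

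Differences were tested in R 4.3.3 with limma 3.58.1 (lmFit and eBayes, Benjamini-Hochberg, 10% FDR) over 15555 probe sets, 62 controls left out, with RA against DMSO fitted without clutch and repeated with it. The methods state that each clutch was split, so the numbers in the sample titles were taken as clutches that pair the pools. The titles themselves do not name clutches. Over genes with a mean log2 level above 5 the deviations of same-numbered pools correlated with r = 0.0971, 0.417 and 0.2. SAM, which the methods name, was not run. Alternatives were quantile normalization, median centring, a filter at a mean log2 level of 5, 16 added before log2, a variance trend, and leaving out each array. Added after the data had been seen were 2 more: quantile normalization with the clutch block, and the clutch test without clutch 1. The tests were checked on simulated data with independent noise for each probe set and array. That simulation held no shift of a whole array such as that of the DMSO pool of clutch 1, so it does not cover it. With 3 arrays a group, their number limits precision.

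The members and the lists were chosen with earlier results of these data known. Named in the text are the 10 brightest genes, 3 on either side of rank 300, up to 5 of the brightest of each list, up to 3 more genes measured for each tissue, the 5 with the widest and the 5 with the narrowest range, and those with the smallest adjusted p; other genes of these lists and families were added after their values were seen.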

Additional observations from a re-analysis of the deposited data

Results flagged for a closer look

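Signal as bright as that of the 300 genes also came from probe sets that the ranking by gene leaves out. In the DMSO pools 56 probe sets with no or several gene symbols were at least as bright as the gene of rank 300, 18 with several symbols and 38 with none. Of these, 21 exceeded the gene of rank 100, and none passed 10% FDR between RA and DMSO by limma. The brightest reads 12 symbols, most of them gamma-M crystallin genes of the crygm2d group, with 3697, 3668 and 3933 in RA against 4636, 3286 and 3459 in DMSO. The next with symbols reads cyt1 and cyt1l, type I keratins of skin, with 2767, 2609.8 and 3491 in RA against 3527, 2805 and 2965 in DMSO. A probe set for the embryonic beta globin genes hbbe1.1, hbbe1.2 and hbbe1.3 had 1807, 1936 and 2279 in RA against 3347, 2038 and 2119 in DMSO, and 1 for hbae1.1 and hbae1.2 had 1119, 1300.5 and 1587 in RA against 2090.5, 1443 and 1429 in DMSO. The counts of lens, epithelial and blood genes among the 300 therefore leave out transcripts of these families.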

How the results depend on the processing

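Of the 300 genes, 299 were shared with a ranking by linear means, 294 with one by the median pool, 300 with quantile normalization, 290 to 291 when 1 DMSO pool was left out, 274 when probe sets marked as shared between transcripts were left out, 266 when all probe sets of a gene were averaged, and 281 with the RA arrays. The median SD of log2 signal over the DMSO pools, 0.165, was 0.0998 after quantile normalization and 0.228 with arrays centred on their medians. It ranged from 0.0569 to 0.19 when 1 pool was left out, and the lowest value was that without clutch 1. Between RA and DMSO 0 of the 300 genes were called, and 1 was (zgc:136930) with the filter on level, 2 (zgc:136930 and rbp4) with 16 added before log2, and 3 (also si:dkey-7c18.24) with the variance trend. The count was 0 under quantile normalization, median centring, with each array left out, and with the clutch as a replicate block (paired), alone or with quantile normalization. Over all probe sets the block gave 45 calls, and 31 with quantile normalization, against 131 without it. The filter leaves fewer probe sets to adjust over, and limma was fitted anew on those left. The cause of these changes was not tested. The clutch test called 0 of the 300 under every alternative, and 0 without clutch 1. Of 108 counts of tissue-list genes recomputed, 3 moved by over 1.5 times, all of 1 gene: the mesenchyme list had 2 without the DMSO pool of clutch 4, and the plasma list 2 in RA and 0 without the DMSO pool of clutch 3. Small differences between RA and DMSO cannot be ordered with 3 pools a group, and signals near 13.2 have no order.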
